A study of Mus musculus with 6 samples.

Results

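Hif3a encodes HIF3A, an alpha subunit of the hypoxia-inducible factors (HIFs), and Egln3 encodes PHD3, a prolyl hydroxylase that marks HIF alpha subunits for destruction. Both genes were examined in forearm long bones, the radius and ulna, of newborn mice of strain 129sv. The samples were 3 from mice carrying the del175k mutation of Tnni2 and 3 from wild-type littermates. Tnni2 encodes the fast skeletal muscle form of troponin I, so its usual site of action is muscle rather than bone. The labels name no zygosity, tissue-specific driver or drug, and do not say whether an array held bone of 1 mouse or of several. Each sample was hybridised to 1 Affymetrix whole-transcript array, and the values are intensities, which are linear units of brightness with 1 value per probe set and array.

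The 2 genes were taken as the probe sets whose annotation lists exactly 1 symbol, Hif3a or Egln3. Each gene had 1 such probe set (10560329 for Hif3a and 10400304 for Egln3), so they are 2 of 8997 probe sets and 2 of 5780 named genes. They were chosen by measured values, namely their higher intensity in the mutants on these same arrays. Their difference between mutant and wild-type bone is therefore given as a description with no test.

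When oxygen is plentiful, the prolyl hydroxylases PHD1, PHD2 and PHD3, encoded by Egln2, Egln1 and Egln3, modify HIF alpha subunits, which are then recognised by the von Hippel-Lindau protein and degraded. When oxygen is scarce the subunits persist, pair with ARNT and switch on genes of glycolysis, vessel growth and mitophagy. Hif3a and Egln3 are themselves known HIF targets in many cells, and both act as brakes: some HIF3A forms compete with HIF1A and EPAS1, and PHD3 hydroxylates them. In the growth plate, cartilage is poor in vessels and its cells depend on HIF1A. Hif3a is also known to respond to glucocorticoids in some mammalian tissues.

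The 250 bases before the annotated start of each gene are shown because they are where a shared motif could be looked for. They come from the RefSeq table of build GRCm38.p6, are read on the gene's own strand, and lie at chr7:17062428-17062677 (minus strand) for Hif3a and chr12:54203875-54204124 (minus strand) for Egln3. Capitals mark the core letters bound by HIFs, searched as ACGTG or GCGTG on both strands.
Hif3a: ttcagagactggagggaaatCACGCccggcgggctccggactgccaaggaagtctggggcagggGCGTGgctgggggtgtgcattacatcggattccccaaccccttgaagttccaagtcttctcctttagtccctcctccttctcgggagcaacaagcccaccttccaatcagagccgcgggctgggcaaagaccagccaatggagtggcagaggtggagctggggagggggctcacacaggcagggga
Egln3: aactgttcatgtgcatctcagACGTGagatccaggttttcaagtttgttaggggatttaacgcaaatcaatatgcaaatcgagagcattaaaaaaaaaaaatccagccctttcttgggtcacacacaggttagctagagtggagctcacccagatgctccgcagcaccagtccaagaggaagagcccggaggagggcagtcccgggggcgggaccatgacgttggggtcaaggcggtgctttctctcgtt

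The Hif3a window holds 2 matches, 1 on each strand, whose first bases lie 230 and 186 bases before the start. The Egln3 window holds 1 match, 229 bases before the start. Of 32851 promoter windows of this length, 38.6% hold at least 1 match and 16.7% hold 2 or more, so such letters are common. The windows of Hif1a, Arnt and Egln1 hold 3, 1 and 2 matches, where 2 of the 3 in Hif1a overlap, and the 2 windows of Egln2 hold 4 and 1. The matches thus do not set Hif3a and Egln3 apart from these relatives. The FoxO motif GTAAACA, present in 3.17% of all windows, and the glucocorticoid receptor half-site AGAACA, present in 16.1%, were each found in 0 of the 7 windows of these 6 genes.

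Defining genes of bone and cartilage were bright on every array, with Col1a1, the main collagen of bone, between 6552 and 7807 and Col2a1, that of cartilage, between 2540 and 4002. Skeletal muscle genes were present too, Acta1 reaching 2889 on mutant and 3614 on wild-type arrays. Array medians ran between 39.6 and 48.4, and wild-type replicate 1 stood apart as the dimmest (median log2 shift from the others -0.30). No probe set had fewer than 3 arrays at 20 or more, which shows a filter by level. A transcript level in whole tissue cannot tell a change in the number of cells from a change in RNA per cell.

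Hif3a was at 39.6, 43.9 and 23.9 on the arrays of mutant replicates 1, 2 and 3, against 11.7, 12.5 and 8.08 on those of wild-type replicates 1, 2 and 3. The 3 mutant arrays were all above the 3 wild-type arrays, with mutant replicate 3 well under the other 2 mutants. The mean was 35.8 ± 10.6 in mutant bone and 10.8 ± 2.36 in wild-type bone (SD, n = 3 each). The log2 difference, mutant minus wild-type, was 1.71 ± 0.28 (SE), or 3.27-fold, and the dimmest mutant array was 1.91 times the brightest wild-type array.

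Wild-type Hif3a was close to the bottom of the table. Among the probe sets of each array it stood at the percentiles 41.6, 48.4 and 13.3 in the mutants, against 1.33, 0.256 and 0.0889 in the wild-type samples. All 3 wild-type values lay under 20, so Hif3a was kept in the table only because all 3 mutant values reached that level, and the order of the groups was fixed by the filter. A dim value may be mostly background, whose handling is not stated. With every value under 20 set to 20, the log2 difference was 0.79 ± 0.24, so the log2 mean of the mutants was 1.73-fold above that level. Mutant replicate 3, at 23.9, lay closer to it.

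Egln3 was at 54.6, 41.7 and 27.8 on the arrays of mutant replicates 1 to 3, against 7.93, 22.8 and 18.7 on those of wild-type replicates 1 to 3. The groups again did not overlap, but the gap was narrow, the dimmest mutant being 1.22 times the brightest wild-type. The mean was 41.4 ± 13.4 in mutant bone and 16.5 ± 7.67 in wild-type bone (SD, n = 3 each), a log2 difference of 1.41 ± 0.40 (SE) or 2.65-fold. Since wild-type replicate 2 lay above 20, the filter did not by itself fix this order.

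Wild-type replicate 1 carried much of the Egln3 difference. It was the lowest Egln3 value at 7.93 and also the dimmest array. Relative to its own array's median, Egln3 stood at 1.15, 0.916 and 0.581 in the mutants, against 0.200, 0.470 and 0.390 in the wild-type samples. Dividing by the median thus left wild-type replicate 1 lowest and the groups apart. Without that array the log2 difference of Egln3 was 0.95 ± 0.29, and that of Hif3a was 1.78 ± 0.31. Relative to the array median, Hif3a stood at 0.833, 0.965 and 0.499 in the mutants, against 0.296, 0.258 and 0.169 in the wild-type samples.

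**Figure D1:**
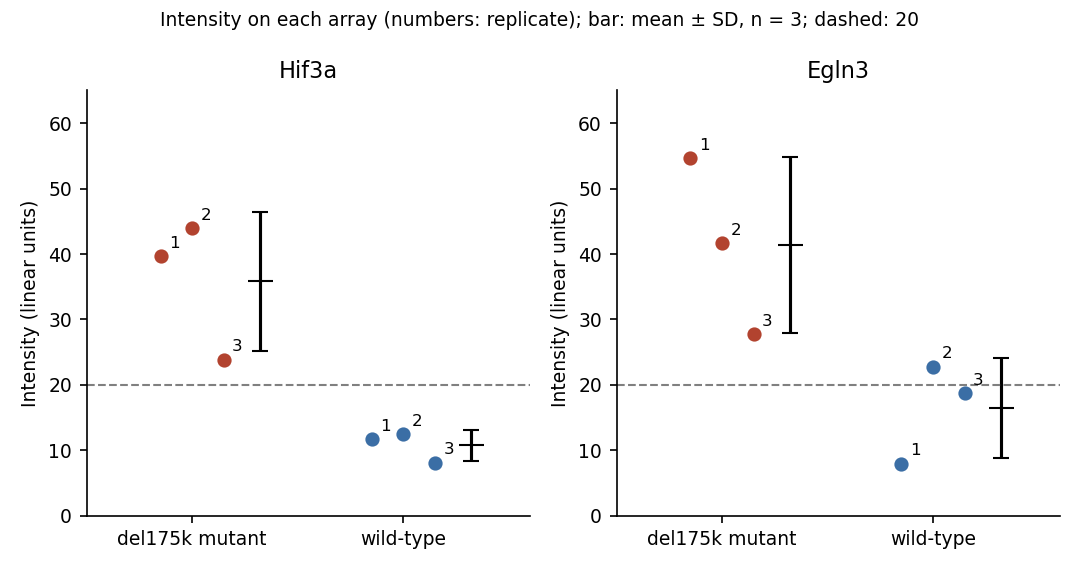
Intensity of Hif3a and Egln3 (vertical axis, linear units) on each array, with del175k mutant samples at left and wild-type samples at right; numbers give the replicate, bars the mean ± SD of 3 arrays, and the dashed line the level of 20. All 3 wild-type points of Hif3a lie under 20, while wild-type replicate 2 of Egln3 lies at 22.8, close to mutant replicate 3 at 27.8.

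The 2 genes shared the low value of mutant replicate 3 but not the order of the wild-type arrays. In the wild-type samples Hif3a was lowest on replicate 3 and Egln3 on replicate 1. The wild-type values spread 1.55-fold for Hif3a and 2.87-fold for Egln3, and the mutant values 1.84-fold and 1.97-fold. Of all 8997 probe sets, 12 had a larger log2 difference than Hif3a and 28 a larger one than Egln3, and 1.07% were at least 2-fold higher in the mutants. Probe sets with every mutant array above every wild-type array, as in both genes, made up 9.18%, which describes the choice of the genes and supports nothing further.

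Under the other ways of processing, the log2 difference of Hif3a ran between 0.79 and 1.98, and that of Egln3 between 0.82 and 1.71. The low ends came from the treatment of dim values. Adding 16 to every intensity gave 0.93 ± 0.18 for Hif3a (1.91-fold) and 0.82 ± 0.23 for Egln3 (1.77-fold). The high end of Hif3a came without mutant replicate 3 (1.98 ± 0.27), and that of Egln3 without wild-type replicate 2 (1.71 ± 0.40).

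**Figure D2:**
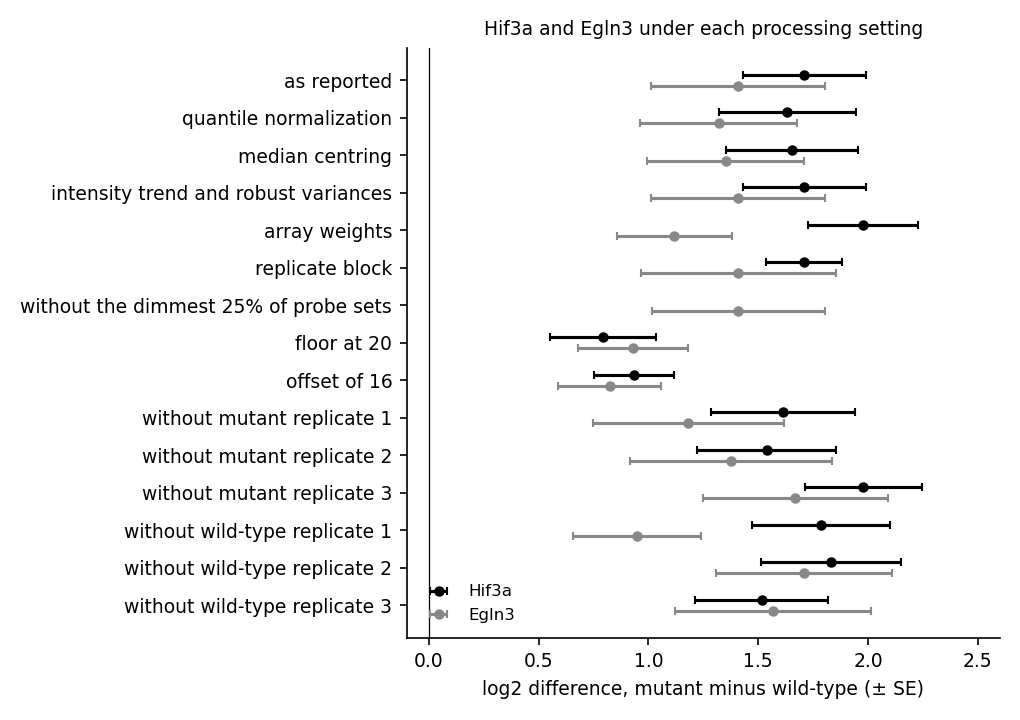
Log2 difference of Hif3a (black) and Egln3 (grey), mutant minus wild-type with its SE (horizontal axis), under each processing setting (rows). All points lie above 0, which was fixed in advance except under rescaling of the arrays, since the groups of neither gene overlap. The floor at 20 and the offset of 16 bring both genes to between 0.79 and 0.93. Hif3a has no point without the dimmest 25% of probe sets, since it is among them.

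For the other HIF subunits the mutant and wild-type arrays overlapped. The remaining genes were tested with limma over all 8997 probe sets, where 0% passed an adjusted p of 0.05 in either direction (0 higher and 0 lower), while 5.74% were higher and 1.7% lower at an unadjusted p under 0.05. Hif1a, the subunit most cells use in hypoxia, was at 49.3, 50.6 and 39.0 in the mutants, against 28.8, 58.9 and 41.1 in the wild-type samples. Its wild-type arrays spanned the mutant ones on both sides, and the log2 difference was 0.16 ± 0.27 (limma adjusted p = 0.894). Epas1, which encodes HIF2A, was at 65.6, 51.8 and 47.3 in the mutants, against 34.3, 56.4 and 64.0 in the wild-type samples. These groups also overlapped, with a log2 difference of 0.13 ± 0.27 (limma adjusted p = 0.924). Arnt, the shared partner of the alpha subunits, was at 96.2, 64.4 and 66.0 in the mutants, against 32.6, 74.2 and 56.7 in the wild-type samples, a log2 difference of 0.53 ± 0.31 (limma adjusted p = 0.720). Of 5 HIF subunit genes 4 were measured, and the 3 besides Hif3a had a median log2 difference of 0.16, against 0.045 over all probe sets. With array weights Epas1 turned to -0.12, and without wild-type replicate 1 Hif1a and Epas1 turned to -0.098 and -0.14.

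The sister hydroxylases of Egln3 had overlapping groups. Egln1, which encodes the main oxygen sensor PHD2, was at 18.4, 16.4 and 30.9 in the mutants, against 15.6, 29.7 and 29.2 in the wild-type samples. The groups overlapped throughout, and the log2 difference was -0.18 ± 0.32 (limma adjusted p = 0.905). Egln2, which encodes PHD1, was at 81.4, 65.5 and 74.3 in the mutants, against 61.0, 65.4 and 69.5 in the wild-type samples, a log2 difference of 0.17 ± 0.19 (limma adjusted p = 0.828). Its 6 values lay close together, and its SE was the smallest of these hydroxylases. Hif1an, the asparaginyl hydroxylase that blocks HIF from its coactivators, differed by 0.46 ± 0.29 (limma adjusted p = 0.725).

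Genes of HIF breakdown gave small differences of both signs. Vhl, the substrate receptor of the ubiquitin ligase, was at 0.32 ± 0.27, and its ligase partners Elob and Rbx1 were at -0.33 ± 0.24 and 0.10 ± 0.24 on the log2 scale. The ligase gene Siah2, whose product targets PHD proteins, was at 0.0021 ± 0.21. Os9 and Wsb1 were at 0.24 ± 0.24 and 0.36 ± 0.37, and Hsp90aa1, a chaperone of HIF1A, at -0.45 ± 0.31. Of 19 genes looked for in this group 11 were measured. Apart from Egln3, 7 of 10 had a higher mean in the mutants, against 56.7% of all probe sets, with 0 past an unadjusted p of 0.05. That count was 6 of 10 after quantile normalization or median centring, 5 of 10 with array weights and 4 of 10 without wild-type replicate 1. Their median log2 difference was 0.14, with limma adjusted p-values of 0.725 or more, and it was -0.0074 with array weights and -0.011 without wild-type replicate 1.

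**Figure D3:**
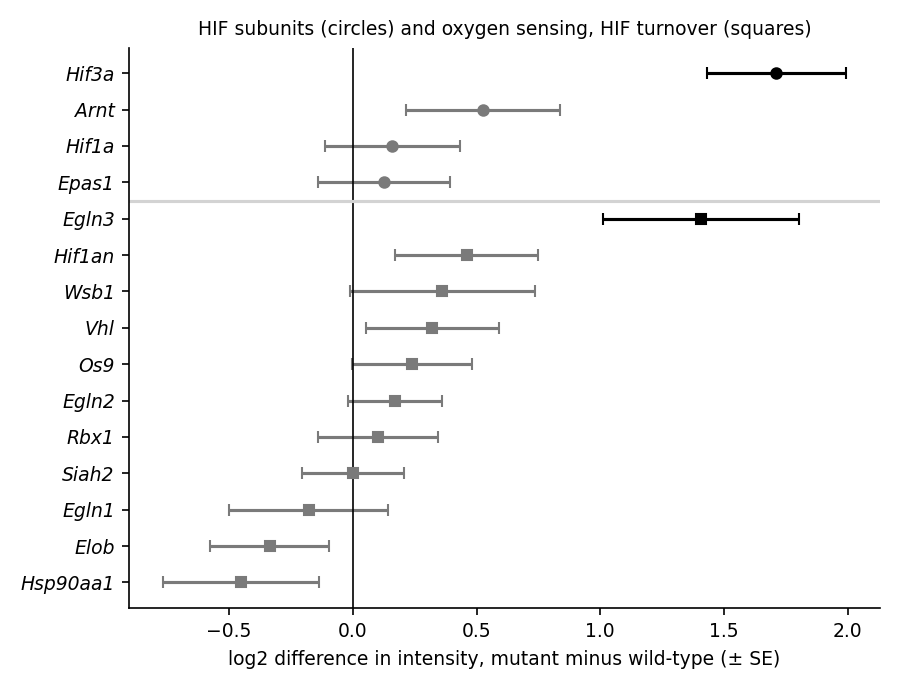
Log2 difference in intensity, mutant minus wild-type, with its SE (horizontal axis) for 4 HIF subunit genes (circles) and 11 genes of oxygen sensing and HIF turnover (squares). Hif3a at 1.71 and Egln3 at 1.41 lie to the right of the other 13 genes, which run between -0.45 and 0.53.

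HIF coactivators and inhibitors were measured in 9 of 10 cases, with 6 higher and 3 lower means in the mutants and a median log2 difference of 0.14. These directions depended on the scaling, with 5 higher and 4 lower under median centring, and 4 higher and 5 lower with a median of -0.025 under array weights. Ep300 and Crebbp, histone acetyltransferases recruited by HIFs, were at 0.53 ± 0.28 and 0.68 ± 0.33, and Ncoa2 at 0.59 ± 0.29. Cited2, a HIF target that competes for those acetyltransferases, was at 0.53 ± 0.25. Ruvbl2 had lower values on all 3 mutant arrays, at 40.7 ± 1.91 in mutant bone and 54.5 ± 1.33 in wild-type bone (SD, n = 3 each), a log2 difference of -0.42 ± 0.18 (limma adjusted p = 0.669). Groups with all mutant values below made up 3.89% of all probe sets. Cited4 and Cited1 were at -0.26 and -0.18. Of 12 related genes with the same bHLH-PAS architecture, such as Ahr and Clock, 0 were among the named probe sets.

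Glycolytic targets of HIF had a median log2 difference of 0.054, close to the 0.045 of all probe sets. Of 16 measured, 10 had higher and 6 lower means in the mutants, or 8 and 8 under quantile normalization, median centring and array weights. At an unadjusted p under 0.05, 1 was higher and 0 lower, against 5.74% and 1.7% of all probe sets. The gene past that p was Gys1, for muscle glycogen synthase. It was at 73.1 ± 3.62 in mutant bone and 50.4 ± 14.9 in wild-type bone (SD, n = 3 each), a log2 difference of 0.58 ± 0.25 (limma adjusted p = 0.667). Slc2a1, the main glucose transporter, was at 170, 138 and 152 in the mutants, against 87.7, 184 and 99.9 in the wild-type samples. Wild-type replicate 2 was the highest of the 6 and the groups overlapped, with a log2 difference of 0.38 ± 0.28. Pdk1, a kinase that keeps pyruvate out of the mitochondrion, was at 0.39 ± 0.30, and the glucose handling genes Slc2a3 and Hk2 at 0.42 ± 0.24 and 0.43 ± 0.30. Slc2a3 lay under 20 on all 3 wild-type arrays, so the filter fixed the order of its groups. Without Slc2a3 the median log2 difference of the glycolytic targets was 0.037.

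Ldha, which turns pyruvate into lactate, was at 381, 474 and 651 in the mutants, against 451, 723 and 564 in the wild-type samples. Its difference was negative, -0.22 ± 0.26, as were those of Aldoa (-0.41 ± 0.34), Pgam1 (-0.25 ± 0.28) and Tpi1 (-0.15 ± 0.29). In all 4 of these enzymes mutant replicate 3 was the highest mutant array, whereas it was the lowest for Hif3a and Egln3. The median of the glycolytic targets was -0.18 without wild-type replicate 1, and it also lay under 0 with median centring and with array weights.

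Among 25 other HIF targets besides Hif3a and Egln3, 16 had higher and 9 lower means, and the median log2 difference was 0.15. With quantile normalization or array weights the directions were 14 and 11, and with median centring 15 and 10. Ccng2, for cyclin G2, lay under 20 on all wild-type arrays, so the filter fixed its order. Without Ccng2 the median log2 difference was 0.10. Of the other 24, 6 were higher and 0 lower at an unadjusted p under 0.05, against 5.74% and 1.7% of all probe sets. In 3 of them the mutant arrays were all above the wild-type arrays, against 9.18% of all probe sets. None of the 24 passed over all probe sets (smallest limma adjusted p = 0.231, 0 called by the ordinary statistic too). Ddit4, which restrains the growth kinase mTORC1, was at 167, 132 and 69.1 in the mutants, against 20.9, 32.2 and 26.6 in the wild-type samples. Like Hif3a it was lowest in mutant replicate 3, which still lay above every wild-type array, and its log2 difference was 2.14 ± 0.33.

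Bnip3, a mitophagy receptor, was at 124, 114 and 104 in the mutants, against 19.2, 95.9 and 47.5 in the wild-type samples. Wild-type replicate 2 came close to the mutants, and the log2 difference was 1.36 ± 0.47 (limma adjusted p = 0.638), against 0.71 on a second probe set. Ndrg1, a stress-responsive gene, differed by 0.94 ± 0.34 and Ccng2, also counted among the FoxO-induced genes, by 1.08 ± 0.21. Vegfa, the main growth factor for vessels, was at 51.5, 37.6 and 59.3 in the mutants, against 33.9, 49.1 and 46.9 in the wild-type samples. Its groups overlapped, with a log2 difference of 0.19 ± 0.24 (limma adjusted p = 0.851) that turned to -0.065 with array weights.

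P4ha1 and P4ha2, collagen prolyl hydroxylases that HIF1A induces in cartilage, were at -0.11 ± 0.36 and -0.48 ± 0.31. Ndufa4l2, which restrains mitochondrial complex I, was at -0.47 ± 0.46, Tmem45a at -0.29 ± 0.34 and Mif at -0.28 ± 0.29. Car9, Adm, Ankrd37 and Angptl4, commonly used readouts of HIF activity, were not among the named probe sets.

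**Figure D4:**
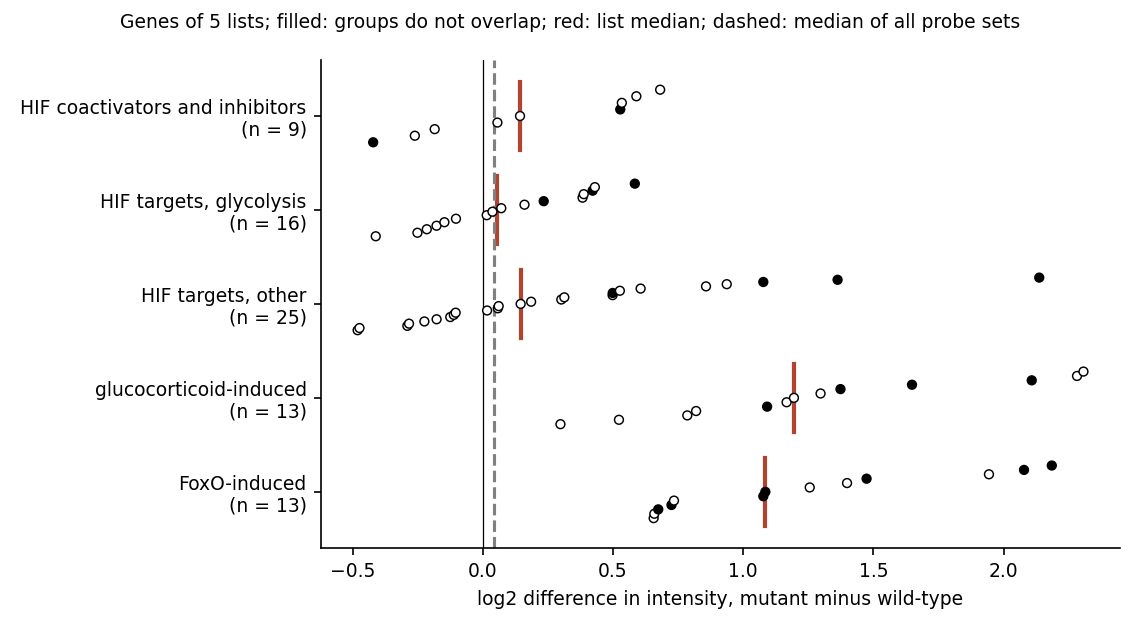
Log2 difference in intensity, mutant minus wild-type (horizontal axis), of each measured gene in 5 lists (rows), without Hif3a and Egln3; filled points have groups that do not overlap (for Slc2a3, Ccng2, Depp1 and Pik3ip1 because of the filter), red bars are list medians and the dashed line is the median of all probe sets, 0.045. The medians of the HIF lists lie at 0.14, 0.054 and 0.15, and those of the glucocorticoid-induced and FoxO-induced lists at 1.19 and 1.09.

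The array pattern of Hif3a and Egln3 was set beside genes of 2 other inputs, glucocorticoids and FoxO factors, chosen because earlier results of these data had shown them. Of 13 measured genes known to be induced by glucocorticoids all had higher means in the mutants. At an unadjusted p under 0.05, 9 of them were higher, against 5.74% of all probe sets. In 4 of them the mutant arrays were all above the wild-type arrays, against 9.18% of all probe sets. Since the list was chosen from these same data, these counts are description only. The median log2 difference of the 13 genes was 1.19, and 1.70 without mutant replicate 3, while 12 of 13 means were higher without wild-type replicate 1. Tsc22d3, which encodes the glucocorticoid-induced leucine zipper protein, was at 166, 155 and 49.6 in the mutants, against 18.6, 35.1 and 24.5 in the wild-type samples. Its log2 difference was 2.11 ± 0.44 (limma adjusted p = 0.420), with mutant replicate 3 far below the other mutants.

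Of 13 measured FoxO-induced genes all had higher means too, with a median log2 difference of 1.09. In 3 of them, Depp1, Ccng2 and Pik3ip1, all wild-type values lay under 20, so the filter fixed the order of the groups and no test is given. Of the other 10, 8 were higher at an unadjusted p under 0.05, against 5.74% of all probe sets. In 4 of them the mutant arrays were all above the wild-type arrays, against 9.18% of all probe sets. The median log2 difference of these 10 genes was 0.91, and this list too was chosen from these same data. Depp1, a FoxO-induced regulator of autophagy, was at 58.4, 39.1 and 33.6 in the mutants, against 9.44, 8.37 and 12.9 in the wild-type samples, a log2 difference of 2.08 ± 0.26.

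Centred on each gene's own mean over the 6 arrays, Hif3a stood at 1.05, 1.20 and 0.32 on the mutant arrays, against -0.71, -0.61 and -1.24 on the wild-type arrays (log2). Egln3 stood at 1.16, 0.77 and 0.18 on the mutant arrays, against -1.62, -0.10 and -0.39 on the wild-type arrays. The median of the glucocorticoid-induced list was 1.21, 1.11 and -0.30 on the mutant arrays, against -1.14, -0.10 and -0.73 on the wild-type arrays. That of the FoxO-induced list was 1.01, 0.60 and 0.064 on the mutant arrays, against -0.82, -0.33 and -0.53 on the wild-type arrays. Both lists, like the 2 genes, were lowest among the mutants on replicate 3. The glucocorticoid-induced median was lower there than on wild-type replicate 2, so its groups overlapped, unlike those of the 2 genes. Among the wild-type arrays both lists were lowest on replicate 1, as was Egln3, whereas Hif3a was lowest on replicate 3. The glycolytic targets stood at 0.095, -0.075 and 0.29 on the mutant arrays, against -0.53, 0.43 and 0.050 on the wild-type arrays, so there mutant replicate 3 was the highest mutant. The 25 other HIF targets stood at 0.18, 0.018 and 0.20 on the mutant arrays, against -0.43, 0.17 and -0.10 on the wild-type arrays. What produced these patterns was not tested.

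**Figure D5:**
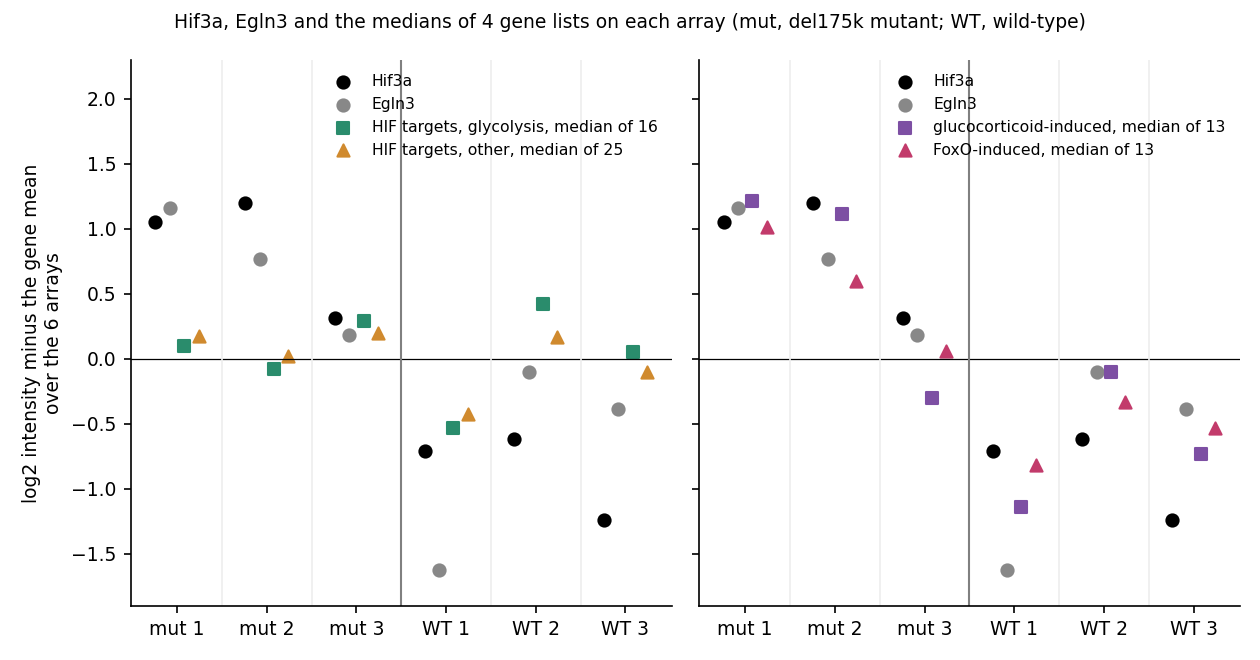
Log2 intensity minus each gene's mean over the 6 arrays (vertical axis) for Hif3a and Egln3, with the medians of HIF target lists (left) and of glucocorticoid-induced and FoxO-induced lists (right), on mutant arrays and then wild-type arrays. Hif3a and Egln3 stand at 1.05 and 1.16 on mutant replicate 1 but at 0.32 and 0.18 on mutant replicate 3, where the glycolytic targets are at 0.29.

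Genes whose pattern was most like that of each gene were ranked over 5699 others by the root mean square difference of these centred log2 values over 6 arrays. Closest to Hif3a was Pik3ip1, an inhibitor of phosphoinositide 3-kinase, at a difference of 0.189, against a median of 0.928 over all ranked genes. Pik3ip1 was at 65.5, 56.8 and 30.3 in the mutants, against 17.9, 19.7 and 14.9 in the wild-type samples. It shares with Hif3a the low value on mutant replicate 3 and a wild-type group that lies wholly under 20. Next came Sat1 (0.323), Gabarapl1 (0.335), Hdc (0.339), Pik3r1 (0.352), Mt1 (0.359), Pcmtd2 (0.363) and Ddit4 (0.376). In Pcmtd2 too all wild-type values lay under 20, so the filter fixed the order of its groups, as it did for Pik3ip1.

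Closest to Egln3 was Ndrg2 at 0.162, against a median of 0.831 over all ranked genes. Ndrg2 was at 277, 266 and 133 in the mutants, against 46.1, 106 and 93.1 in the wild-type samples, so it too was lowest on wild-type replicate 1. Lifr, a receptor subunit for leukemia inhibitory factor, followed at 0.168, then Ubxn7 (0.204), Arrdc3 (0.215), Igf1r (0.235), Tgfbr3 (0.236), Mmp13 (0.237) and Klhl24 (0.240). The 8 genes nearest to Hif3a and the 8 nearest to Egln3 were different genes. The pair itself stood 0.585 apart, which made Egln3 the gene at rank 121 from Hif3a and Hif3a the gene at rank 526 from Egln3. These likenesses describe 6 shared arrays and carry no test.

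Markers of other cells in the sample were compared with these patterns. Epidermal genes, 6 of 9 measured, all had lower means in the mutants, except that 4 of 6 were higher with array weights. They summed to intensities of 75.3, 460 and 51.3 on the mutant arrays, against 1798, 1248 and 47.3 on the wild-type arrays. The skin genes were bright on wild-type replicates 1 and 2 but dim on wild-type replicate 3, where Hif3a was lowest of all. Skeletal muscle genes, 10 of 12 measured, summed to 5237, 5437 and 6946 on the mutant arrays, against 3908, 6195 and 8132 on the wild-type arrays, so the groups overlapped. Of 10 adipocyte markers 3 were measured, with sums between 84.6 and 89.0 on the mutant arrays and between 64.2 and 101 on the wild-type arrays. Adipoq, Plin1 and Pparg were not among the named probe sets.

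Osteoclast genes, 4 of 7 measured, all had higher means in the mutants. They summed to 1690, 1177 and 1550 on the mutant arrays, against 594, 857 and 1028 on the wild-type arrays, and mutant replicate 2 was the lowest mutant. The sums did not overlap. Taken singly, 3 of the 4 genes had all mutant arrays above, against 9.18% of all probe sets, and the groups of Ocstamp overlapped. Cartilage genes, 8 of 8 measured, summed to 6553, 6529 and 5840 on the mutant arrays, against 4206, 6359 and 6576 on the wild-type arrays. Col2a1, the brightest of them, differed by 0.081 ± 0.22 (log2). Of the 8 genes 7 had higher means in the mutants, against 56.7% of all probe sets, with a median log2 difference of 0.29. That count was 5 of 8 with array weights or without wild-type replicate 1. Endothelial genes, 5 of 7 measured, summed to between 171 and 211 on the mutant arrays and between 132 and 201 on the wild-type arrays. All 5 had higher means in the mutants, with a median log2 difference of 0.11, but 2 of 5 with array weights or without wild-type replicate 1. The part of any of these cell types in the values of Hif3a and Egln3 was not tested.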

How the data were processed

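Per the labels' protocols, RNA was purified on RNeasy columns, turned into single-stranded cDNA from amplified cRNA, fragmented and labelled with biotin. The authors deposited 1 intensity per probe set and array on a linear scale; how background, summarisation and scaling were handled is not stated in the sources used here. Exactly 1 gene symbol was listed for 6398 of the 8997 probe sets in the platform annotation of 2016, several for 576 and none for 2023. For each of the 327 genes with several, its brightest probe set by mean was used.

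The log2 of the deposited intensity was analysed as it stood. Group means were fitted in limma 3.58.1 (lmFit, eBayes; R 4.3.3), two-sided, with Benjamini-Hochberg adjustment over all probe sets; SEs are those of that fit. The fit was tested on simulated arrays with known changes and independent normal noise. They had no dim array and no level filter, so those features of the real data were not covered. Tables and plots used Python 3.11.15, pandas 2.3.3 and matplotlib 3.10.9. The number of arrays limits the precision, and the labels do not say whether an array held 1 mouse, so spread may be partly technical.

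The genes, lists, motifs and likeness measure were chosen with earlier results of these data known. Genes named were Hif3a and Egln3, all measured HIF subunit and sensing genes, 12 set HIF targets where measured, up to 4 members of smallest p per direction in each other list, and the 8 most alike, skipping predicted genes. Same-numbered arrays had deviations from their group means that correlated between -0.106 and 0.315, so the numbers were not taken as pairs.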

Additional observations from a re-analysis of the deposited data

How the results depend on the processing

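The signs of the Hif3a and Egln3 differences were the same under all alternatives run (13 for Hif3a, 14 for Egln3). Since the groups of neither gene overlap, only rescaling of the arrays could have changed a sign. A floor, an offset, array weights or leaving out an array could not, so the shared sign is no support. Hif3a moved by more than its replicate spread with the floor at 20 (0.79) and the offset of 16 (0.93), where the construction pulls dim values together. With each array left out in turn, Hif3a ran between 1.52 and 1.98 and Egln3 between 0.95 and 1.71.

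Over all probe sets, array weights gave 4 passing higher, among them Ddit4 (adjusted p = 0.0379), and leaving out arrays gave 0 to 15, the 15 without mutant replicate 3. At an unadjusted p under 0.05 the 153 lower became 322 with quantile normalization, 294 with median centring, 796 with array weights and 236 with the replicate block, and the 516 higher became 300 with the ordinary statistic. With arrays left out, these ran between 235 and 809 higher and between 87 and 321 lower. The cause was not tested.

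Named genes gave 24 reversals of sign, 8 calls gained and 882 values on the same side over 66 genes. With array weights Epas1 was at -0.12, Rbx1 at -0.16, Siah2 at -0.087 and Vegfa at -0.065, and Siah2 was at -0.079 with quantile normalization and -0.054 with median centring. With arrays left out, Hif1a ran between -0.098 and 0.42, Epas1 between -0.14 and 0.31, Egln1 between -0.48 and 0.0016, Rbx1 between -0.083 and 0.30, Siah2 between -0.14 and 0.12, Wsb1 between -0.018 and 0.84, P4ha1 between -0.45 and 0.15, Cited4 between -0.41 and 0.018, Cited1 between -0.36 and 0.00047, Tpi1 between -0.41 and 0.020, Mif between -0.56 and 0.024 and Tmem45a between -0.50 and 0.13. Without mutant replicate 3, Tsc22d3, Mt1, Glul and Ddit4 passed (adjusted p = 0.0190 each). The other calls gained were those of Depp1 and Pik3ip1, whose wild-type values all lie under 20, so that the level filter fixed their direction.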

Other observations

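Egln3 belongs to the 2-oxoglutarate-dependent dioxygenases, enzymes that use oxygen and iron. A related list of 31 genes was looked for. It held collagen hydroxylases with their partners P4hb and P3h4, other hydroxylases such as Asph and Jmjd6, and demethylases of histones and nucleic acids. Of these genes 23 were measured, with 14 higher and 9 lower means in the mutants and a median log2 difference of 0.11. The directions were 13 higher and 10 lower with quantile normalization or median centring, and 9 higher and 14 lower with array weights or without wild-type replicate 1. At an unadjusted p under 0.05, 2 were higher and 0 lower, against 5.74% and 1.7% of all probe sets. With limma 0 passed over all probe sets. The 2 were the histone H3K4 demethylases Kdm5b and Kdm5a. Kdm5b was at 109, 92.2 and 84.4 in the mutants, against 41.3, 81.2 and 59.2 in the wild-type samples, a log2 difference of 0.70 ± 0.26 (limma adjusted p = 0.664). Kdm5a was at 31.6, 25.4 and 26.4 in the mutants, against 12.7, 24.4 and 11.7 in the wild-type samples (0.85 ± 0.29, limma adjusted p = 0.638). In both genes the mutants lay above the wild-type arrays, which 9.18% of all probe sets also did, with wild-type replicate 2 close behind. Kdm5a lay under 20 on 2 wild-type arrays. Tet3, a DNA hydroxylase, differed by 0.46 ± 0.25, and by 0.017 on a dimmer probe set.

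Among the collagen-modifying enzymes, P4ha3 was at 43.2, 35.5 and 54.3 in the mutants, against 49.3, 68.3 and 61.7 in the wild-type samples, a log2 difference of -0.44 ± 0.23 (limma adjusted p = 0.708) with overlapping groups. P3h4, a partner of prolyl and lysyl hydroxylases, was at -0.40 ± 0.23 and P3h1 at -0.17 ± 0.22. The median of all 23 genes was -0.056 with array weights and -0.077 without wild-type replicate 1.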
